A study of Homo sapiens with 20 samples.

Results

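Aminoacyl-tRNA synthetases were examined in Jurkat T lymphoblasts with and without CD47. A gene was taken as a member if its symbol was a single amino acid letter followed by ARS1 or ARS2, or if it was FARSA, FARSB or EPRS1, and if its counts summed to at least 100 over all libraries. Of the 60719 genes in the table, 37 met this rule, 20 of them coding for cytosolic enzymes and 17 for mitochondrial enzymes. WT Jurkat, a human T cell leukemia line, and JinB8, a somatic mutant derived from it that lacks surface CD47 (CD47-), were each sequenced in 10 libraries. Untreated cells of each line gave 1 library, at 1 h. The treated cells were held on plates coated with antibodies to CD3 and to CD28 (CD3+CD28), on such plates with thrombospondin-1 added (CD3+CD28+TSP1), or with TSP1 alone, and every treatment was sequenced once after 1 h, once after 3 h and once after 6 h. All cells were kept in a defined medium without serum, no untreated library was sequenced at 3 or 6 h, and the only CD47- cells were those of 1 mutant line. Each condition was sequenced once and the sources do not say whether libraries came from separate cultures, so p-values measure only the spread between these libraries.

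Each synthetase joins 1 amino acid to its tRNAs and so supplies charged tRNA to the ribosome. Separate nuclear genes serve the cytosol and the mitochondrion for most amino acids, while GARS1 and KARS1 are known to serve both compartments and EPRS1 charges 2 kinds of cytosolic tRNA, those for glutamate and proline. Many genes of cytosolic synthetases are targets of ATF4, the transcription factor of the amino acid response, which is made when amino acids are short or the endoplasmic reticulum is under stress and which binds a short element together with C/EBP proteins. T cells raise the capacity to charge tRNA as they begin to grow.

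Library totals ran from 16107921 to 31737616 counts, and the counts of single members ran from 110 for PARS2 to 17102 for IARS1. All 37 members passed the low-count filter. The 9 T cell markers summed to between 1797 and 2492 CPM (counts relative to a library size scaled by the TMM method) in WT libraries and to between 1626 and 2385 CPM in JinB8 libraries, whereas the sums of the monocyte, epithelial and fibroblast markers reached at most 1.45, 3.74 and 7.94 CPM. The 3 B cell markers summed to between 34.1 and 54.1 CPM in WT and to between 4.201 and 10.3 CPM in JinB8. Nearly all of this was CD79A, at 42.2 ± 6.14 CPM (SD, n = 10) in WT and 6.75 ± 1.95 CPM (SD, n = 10) in JinB8, while MS4A1 reached at most 0.163 CPM. Its part in the differences between the lines was not tested. CD47 stood at 317 ± 42.1 CPM (SD, n = 10) in WT and at 147 ± 12.6 CPM (SD, n = 10) in JinB8. The JinB8 CD3+CD28+TSP1 library at 3 h had the lowest total and stood apart, with cytosolic synthetases summing to 3574 CPM against 4269.6 and 4441 CPM in the other JinB8 libraries at 3 h. Counts of members called between lines, times and treatments are given with and without it. In bulk RNA, fewer cells of a type and less RNA per cell cannot be told apart.

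The short sequences that follow are shown because 6 of the members whose RNA is compared below carry the same 8 letters near their start. They were read from the promoter table of RefSeq for GRCh38.p14 around each gene's start, which had an entry for 30 of the 37 members. Each is printed 5′ to 3′ in the direction of its gene, with up to 30 bases on either side, and the capitals mark TGATGCAA or its reverse complement TTGCATCA, a form of the element bound by ATF4 with C/EBP proteins. The letters were chosen after the values of the genes had been seen. The TARS1 stretch is at chr5:33440937-33441004 on the plus strand, the IARS1 stretch at chr9:92293673-92293740 on the minus strand, the CARS1 stretch at chr11:3057388-3057455 on the minus strand, the MARS1 stretch at chr12:57488034-57488101 on the plus strand, the AARS1 stretch at chr16:70289656-70289723 on the minus strand and the NARS1 stretch at chr18:57621787-57621852 on the minus strand.
TARS1: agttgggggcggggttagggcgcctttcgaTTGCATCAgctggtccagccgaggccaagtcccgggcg
IARS1: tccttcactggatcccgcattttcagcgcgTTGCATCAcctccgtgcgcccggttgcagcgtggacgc
CARS1: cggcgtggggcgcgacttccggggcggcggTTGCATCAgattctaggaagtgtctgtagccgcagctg
MARS1: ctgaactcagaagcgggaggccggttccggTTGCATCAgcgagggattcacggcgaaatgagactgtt
AARS1: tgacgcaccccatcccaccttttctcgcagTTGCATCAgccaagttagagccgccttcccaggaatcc
NARS1: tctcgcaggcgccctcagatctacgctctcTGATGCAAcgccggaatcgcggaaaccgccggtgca

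Searched on both strands, these letters were found in 6 of 30 members and in 1.08% of the 27305 genes of the table. All 6 are cytosolic and belong to a list of 13 synthetases known as ATF4 targets (AARS1, CARS1, EPRS1, GARS1, IARS1, LARS1, MARS1, NARS1, SARS1, TARS1, VARS1, WARS1 and YARS1), of which 10 had an entry. The letters were in none of the 6 other cytosolic members and none of the 14 mitochondrial members with an entry. With any base at the sixth position (TGATGNAA), 8 of 30 members and 4.46% of all genes held a match. Among the 8 are GARS1, which is cytosolic, and YARS2, which is mitochondrial. The letters CACGTG (an E-box) were searched too and were found in 4 of 30 members (CARS2, EARS2, IARS1 and MARS2) and in 8.77% of all genes. A match describes letters and not a bound site.

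Per unit of transcript length, cytosolic synthetases were more abundant than their mitochondrial counterparts. In WT cells the median over members was 70.0 TPM (a share of transcripts, computed from isoform counts and annotated lengths) for the cytosolic class and 12.3 TPM for the mitochondrial class. Cytosolic levels ran from 6.95 TPM for FARSB, the beta subunit of phenylalanyl-tRNA synthetase, to 165.7 TPM for TARS1, the threonyl enzyme. Mitochondrial levels ran from 2.92 TPM for PARS2, the prolyl enzyme, to 26.4 TPM for IARS2, the isoleucyl enzyme. In JinB8 the medians were 96.0 and 14.9 TPM.

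Of 17 pairs of a mitochondrial enzyme and the cytosolic enzyme for the same amino acid, the cytosolic member had the higher mean TPM in 16 in WT and in 17 in JinB8. EPRS1 was paired with both EARS2 and PARS2. FARS2, the mitochondrial phenylalanyl enzyme, was set against the alpha subunit FARSA only. The beta subunit FARSB was close to FARS2, at 6.95 against 6.31 TPM in WT and 8.98 against 8.65 TPM in JinB8. The ratio in WT was 26.0 for EPRS1 over PARS2, 21.8 for TARS1 over TARS2 and 8.21 for MARS1 over MARS2, the methionyl pair. It was smaller for HARS1 over HARS2, the histidyl pair, at 2.09, and for CARS1 over CARS2, the cysteinyl pair, at 1.87. The valyl pair, VARS1 over VARS2, was the exception, with a ratio of 0.975 in WT and 1.21 in JinB8. These ratios pool 1, 3 and 6 h, and the exception may differ at single times. From 1 h to 6 h in WT, mean levels went from 121 to 59.0 CPM for CARS1 and from 27.1 to 50.7 CPM for CARS2. They went from 20.9 to 49.9 CPM for VARS1 and from 34.2 to 57.0 CPM for VARS2. The HARS1 and HARS2 gene models lie on opposite strands and overlap at chr5:140691430-140691537 (GENCODE 44), and because the strand setting of the counting is not given in the sources used here, reads from this overlap cannot be told apart.

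**Figure D1:**
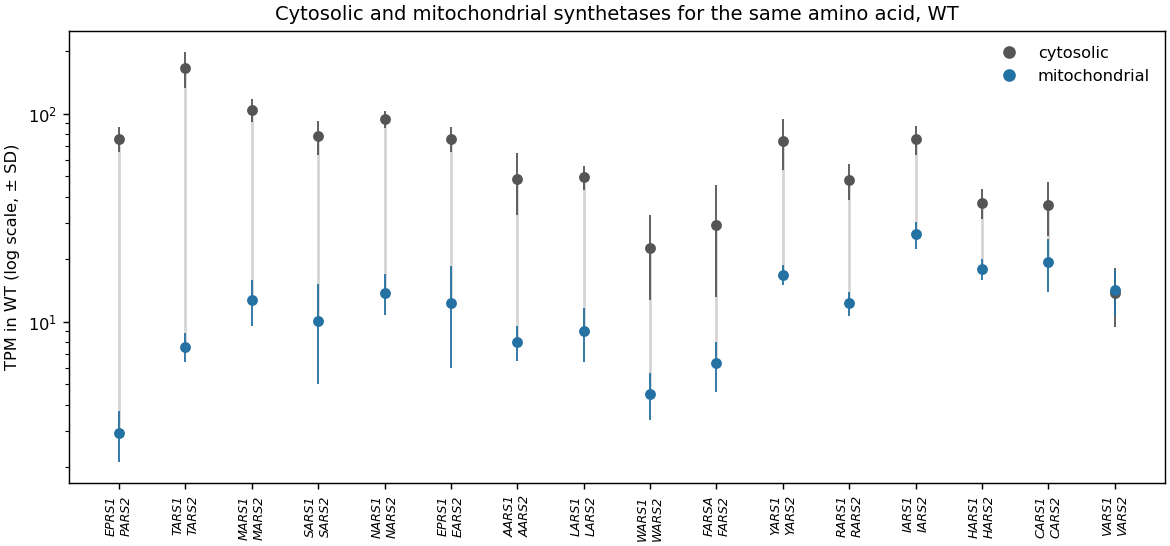
Level per length of each mitochondrial synthetase and its cytosolic partner in WT cells (TPM, log axis; points are means and bars SD over 10 libraries). The cytosolic member is higher in 15 of the 16 pairs drawn, with the valyl pair near parity.

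The members of each class were summed in every library, and the sums and their ratio were not tested. Summed cytosolic synthetases stood at 3823 ± 178 CPM (SD, n = 4) in WT at 1 h, 3466 ± 141 CPM (SD, n = 3) at 3 h and 3294 ± 32.7 CPM (SD, n = 3) at 6 h. In JinB8 the same sums were 4365 ± 87.3, 4095 ± 459 and 5029 ± 61.4 CPM. The cytosolic sum at 6 h was thus below every 1 h value in WT and above every 1 h value in JinB8.

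Summed mitochondrial synthetases were 500.2 ± 10.4, 547 ± 7.81 and 741 ± 14.2 CPM at 1, 3 and 6 h in WT, and 569 ± 6.98, 575 ± 13.7 and 751 ± 9.63 CPM in JinB8. The 6 h values were above all 1 h values in both lines, and the lines overlapped at 6 h. The ratio of the cytosolic to the mitochondrial sum in WT was 7.52 untreated, 8.28 with CD3+CD28, 7.44 with CD3+CD28+TSP1 and 7.34 with TSP1 at 1 h, and 4.44, 4.504 and 4.39 with the 3 treatments at 6 h. In JinB8 the ratio ran from 7.57 to 7.75 at 1 h and was 6.64, 6.70 and 6.74 at 6 h. The lines overlapped in this ratio at 1 h and were apart at 6 h.

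**Figure D2:**
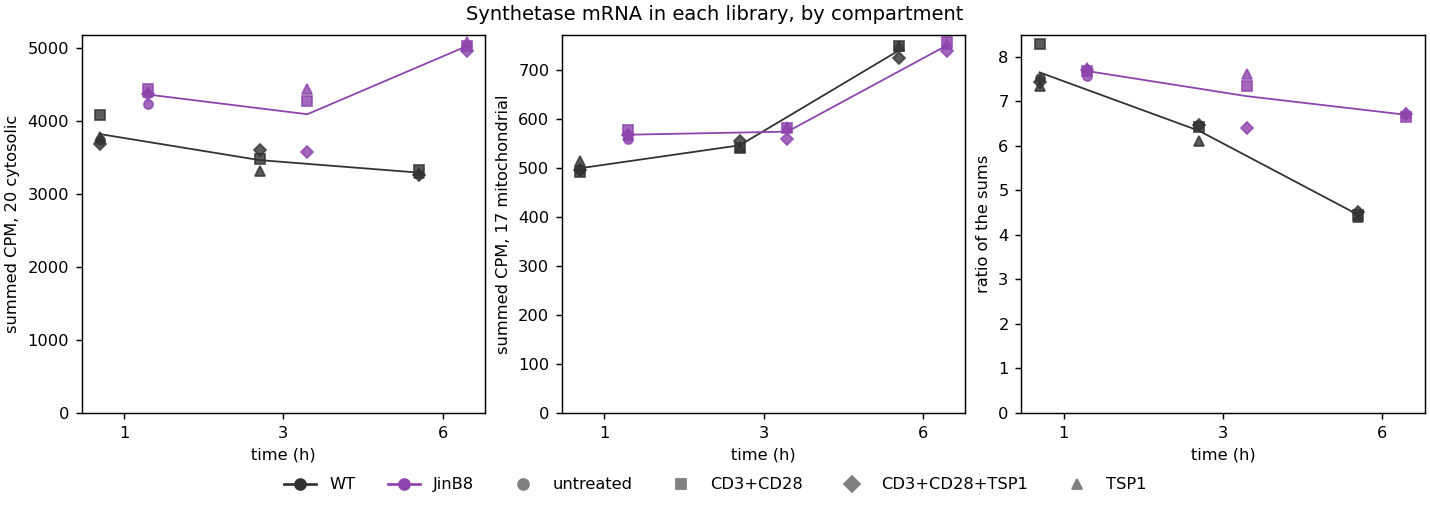
Summed CPM of the 20 cytosolic synthetases, summed CPM of the 17 mitochondrial synthetases and the ratio of the sums, for each library by time (h) and line. The ratio at 6 h lies between 4.39 and 4.504 in WT and between 6.64 and 6.74 in JinB8, while the mitochondrial sums of the lines overlap.

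In WT cells, 29 of 37 members differed between 6 h and 1 h (edgeR quasi-likelihood test, adjusted p under 0.05), against 50.5% of the 16327 genes tested. Of the cytosolic members 7 rose, 10 fell and 3 did not pass, with a median log2 fold change of -0.22 (-0.14 with limma voom and quantile normalization), and of the mitochondrial members 12 rose, none fell and 5 did not pass, with a median of 0.54. The median over all genes tested was -0.0031. Without the JinB8 CD3+CD28+TSP1 library at 3 h, which enters the shared estimate of the spread, 32 members and 57.3% of genes passed.

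The cytosolic enzymes that fell in WT were led by AARS1, the alanyl enzyme, with a log2 fold change of -1.10 (SE 0.0673), and by CARS1 with -1.06 (SE 0.0655). YARS1, the tyrosyl enzyme, fell by 0.94 on the log2 scale, TARS1 by 0.64, SARS1, the seryl enzyme, by 0.55, and GARS1, the glycyl enzyme, by 0.54. QARS1, the glutaminyl enzyme, fell by 0.49, MARS1 by 0.39, IARS1 by 0.28 and EPRS1 by 0.23. The EPRS1 call was lost when any 1 of 5 libraries was left out. Values were -0.15 for NARS1 (asparaginyl) and 0.13 for KARS1 (lysyl), which did not pass the test.

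The cytosolic enzymes that rose in WT were led by WARS1, the tryptophanyl enzyme known for its induction by interferon. WARS1 stood at 26.0 CPM untreated and at 30.4, 30.3 and 29.7 CPM with CD3+CD28, CD3+CD28+TSP1 and TSP1 at 1 h, and at 74.4, 86.2 and 76.6 CPM with the 3 treatments at 6 h. The times did not overlap, and the log2 fold change was 1.39. FARSA, the alpha subunit of phenylalanyl-tRNA synthetase, went from between 33.8 and 44.2 CPM to between 103 and 105 CPM, a change of 1.34, and its partner subunit FARSB rose by 0.97. VARS1 went from between 19.4 and 23.0 CPM to between 47.8 and 52.2 CPM, a change of 1.24. RARS1 (arginyl) rose by 0.61, HARS1 by 0.43 and LARS1 (leucyl) by 0.35.

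In JinB8 cells, 25 of 37 members differed between 6 h and 1 h, against 53.0% of genes tested, and 27 did so without the 3 h library that stood apart, against 58.9% of genes. Here 11 cytosolic members rose, 3 fell and 6 did not pass, with a median of 0.36, and 11 mitochondrial members rose, none fell and 6 did not pass, with a median of 0.57. The median over all genes was -0.0034. Among the cytosolic members the largest rises were again those of FARSA (1.53), WARS1 (1.40) and VARS1 (1.37). FARSA went from between 38.1 and 53.9 CPM at 1 h to between 119 and 129 CPM at 6 h, and WARS1 from between 32.8 and 37.3 CPM to between 90.5 and 92.6 CPM. Neither overlapped between the times.

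Other cytosolic members that rose in JinB8 were FARSB (0.92), RARS1 (0.68), LARS1 (0.57), MARS1 (0.57), NARS1 (0.49), GARS1 (0.44), TARS1 (0.44) and HARS1 (0.29). AARS1 fell by 0.79 and QARS1 by 0.39. The changes of CARS1 (0.15), KARS1 (0.11), EPRS1 (0.03), YARS1 (0.03), SARS1 (-0.13) and IARS1 (-0.17) did not pass the test. GARS1, MARS1 and TARS1 therefore rose in JinB8 and fell in WT, each by its own test.

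At 3 h fewer members had moved. In WT, 20 of 37 differed from 1 h (4 cytosolic and 7 mitochondrial higher, 7 cytosolic and 2 mitochondrial lower), against 34.3% of genes, and 23 did so without the library that stood apart, against 43.3% of genes, but 12 without the WT CD3+CD28 library at 3 h, against 26.3%. AARS1 had already fallen by 0.68 and YARS1 by 0.50, while EARS2 had risen by 0.74 and WARS1 by 0.66. In JinB8, 19 of 37 differed (4 cytosolic and 4 mitochondrial higher, 8 cytosolic and 3 mitochondrial lower), against 38.0% of genes, and 19 did so without the library that stood apart, against 37.4%. AARS1 fell by 0.59 and QARS1 by 0.52, and VARS1 rose by 0.64. These values and the split by class and direction in JinB8 include the library that stood apart, and are not given without it here. QARS1 in JinB8 had a lowest, median and highest level of 113, 142 and 146 CPM at 3 h, against 183 CPM or more at 1 h.

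**Figure D3:**
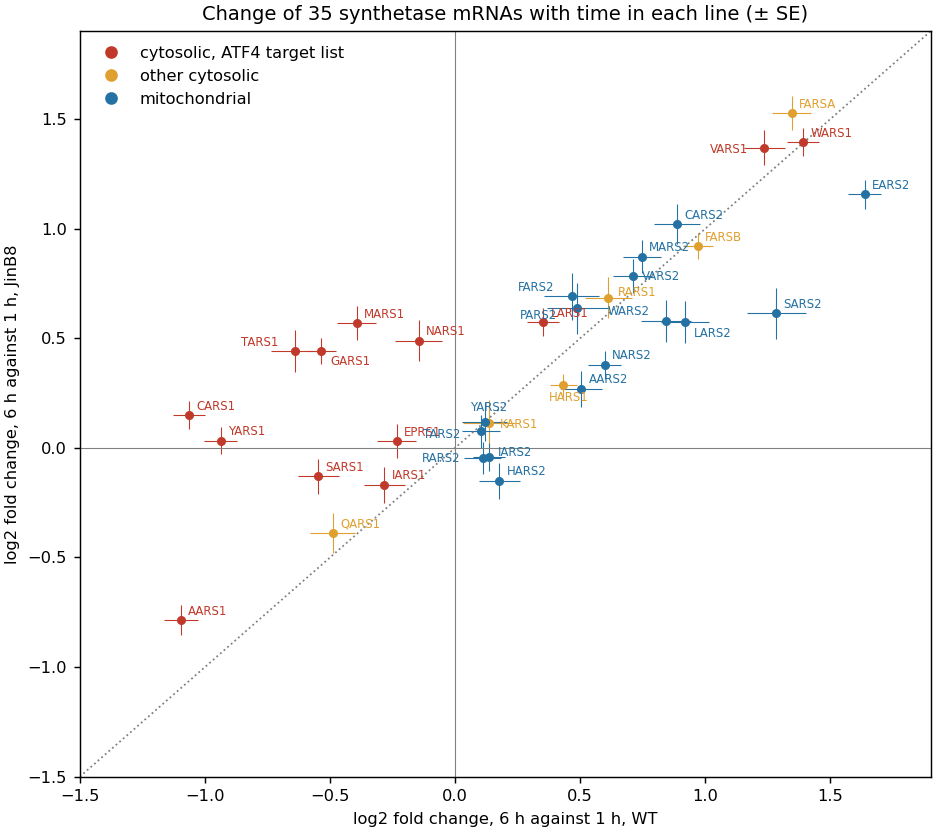
Log2 fold change at 6 h against 1 h of 35 members in WT (horizontal axis) and JinB8 (vertical axis), with bars of 1 SE and colors for cytosolic members on the ATF4 target list, other cytosolic members and mitochondrial members. CARS1 (-1.06 in WT, 0.15 in JinB8) and TARS1 (-0.64 and 0.44) lie above the diagonal, and EARS2 (1.64 and 1.16) lies below it.

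The difference between the lines in the 6 h change was tested as an interaction. It passed for 11 of 37 members, against 16.6% of genes tested, and for 14 without the 3 h library that stood apart, against 26.1% of genes tested without it. All 8 cytosolic members that passed had the higher change in JinB8, a direction called in 6.46% of genes, and all 3 mitochondrial members that passed had the lower change in JinB8, a direction called in 10.2% of genes. The median difference was 0.20 over the cytosolic members, -0.18 over the mitochondrial members and -0.0021 over all genes.

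CARS1 had the largest difference. In WT it stood at 113 CPM untreated and at 123, 124 and 123 CPM with CD3+CD28, CD3+CD28+TSP1 and TSP1 at 1 h, and at 58.0, 61.1 and 57.8 CPM at 6 h. In JinB8 it stood at 129.8, 126, 128 and 127 CPM at 1 h and at 146, 137 and 140.4 CPM at 6 h. The lines were close at 1 h and more than a doubling apart at 6 h in every treatment, and the change differed by 1.21 (SE 0.0915, edgeR adjusted p = 2.62e-06).

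TARS1 stood at 402, 457, 398 and 406 CPM at 1 h and at 266, 272 and 270.0 CPM at 6 h in WT. In JinB8 it stood at 357, 389, 379.7 and 373 CPM at 1 h and at 519, 501 and 534 CPM at 6 h. JinB8 was below WT in all 1 h libraries and above it in all 6 h libraries. The changes differed by 1.08 (SE 0.136, edgeR adjusted p = 0.000164).

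GARS1 showed the same exchange of order. It stood at 302, 314, 282 and 285 CPM at 1 h and at 211, 195 and 200.3 CPM at 6 h in WT, and at 240.5, 258, 249 and 248 CPM at 1 h and 341, 341 and 344 CPM at 6 h in JinB8. The difference was 0.98 (SE 0.0841, edgeR adjusted p = 7.70e-06). GARS1 was also 1 of the 2 members whose change differed at 3 h, by 0.43 (SE 0.0840, edgeR adjusted p = 0.0155).

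YARS1 stood at 207, 223, 216 and 218 CPM at 1 h and at 117, 113 and 113 CPM at 6 h in WT. In JinB8 it kept to between 219 and 226 CPM at 1 h and to between 223 and 234 CPM at 6 h. The WT libraries thus fell well below the JinB8 level, with a difference of 0.97 (SE 0.0903, edgeR adjusted p = 1.54e-05). MARS1, which sits in the multisynthetase complex, stood at 193, 239, 223 and 204 CPM at 1 h and at 175, 164 and 167 CPM at 6 h in WT. In JinB8 it stood at 191, 192, 204 and 208 CPM at 1 h and at 303, 301 and 291 CPM at 6 h. The lines overlapped at 1 h and were apart at 6 h, with a difference of 0.96 (SE 0.110, edgeR adjusted p = 8.03e-05).

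The other cytosolic members that passed were NARS1 with 0.64 (SE 0.134, edgeR adjusted p = 0.00581), SARS1 with 0.42 (SE 0.116, adjusted p = 0.0260) and AARS1 with 0.31 (SE 0.0939, adjusted p = 0.0372). NARS1 was between 233 and 242 CPM in WT and between 367 and 409 CPM in JinB8 at 6 h, after overlapping at 1 h. SARS1 and AARS1 were already higher in JinB8 at 1 h. The calls for SARS1 and AARS1 depended on single libraries, since leaving out 1 library in turn lost the SARS1 call in 6 of 20 cases (adjusted p up to 0.0859) and the AARS1 call in 9 of 20 (up to 0.107).

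**Figure D4:**
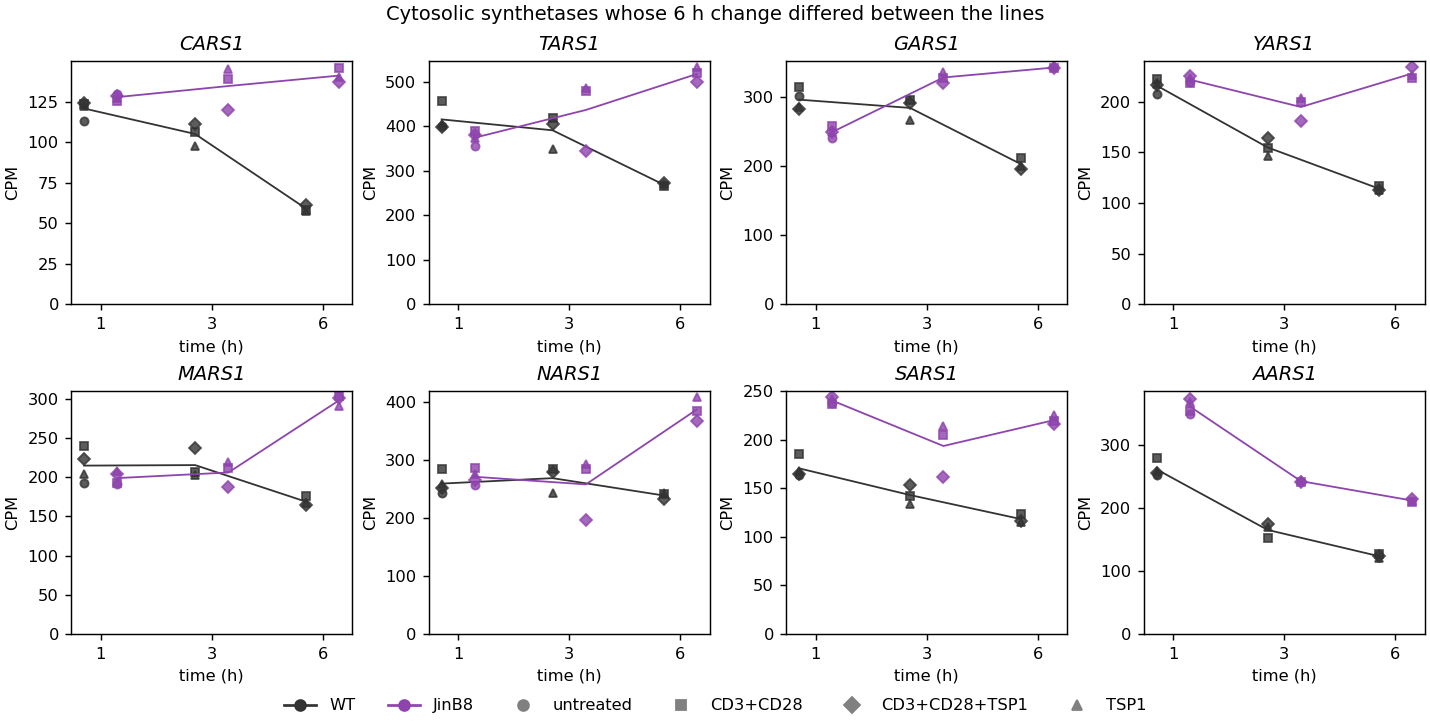
CPM by time (h) of the 8 cytosolic synthetases whose 6 h change differed between the lines, with 1 point per library, marker shape for treatment and a line through the means. At 6 h every JinB8 library lies above every WT library in each panel, as for CARS1 at 137 CPM or more against 61.1 CPM or less. The members drawn were chosen by a test on these same libraries, so the gap at 6 h is no separate result. Of all genes, 47.2% differed between the lines at 6 h, and the share without overlap is not given here.

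All 8 of these members are on the list of 13 synthetases known as ATF4 targets, and none of the 7 other cytosolic members passed by edgeR, DESeq2 or limma voom, where 16.6, 15.8 and 16.9% of all genes passed. At an unadjusted p under 0.05, 0 of the 7 were reached with edgeR, 0 with DESeq2 and 1 with limma voom, against 4979, 4446 and 5001 of all 16327 genes. With 7 members, a count of 0 lies near the share over all genes, and the difference between the list and the other members was not tested. The members on the list that did not pass had differences of 0.26 for EPRS1, 0.22 for LARS1, 0.13 for VARS1, 0.11 for IARS1 and 0.00 for WARS1. Of the 8, 7 had a promoter entry and 5 of those hold the letters printed above (AARS1, CARS1, MARS1, NARS1 and TARS1), whereas GARS1 and SARS1 do not and YARS1 had no entry. IARS1 holds the letters too and its difference did not pass. The list itself was drawn up with earlier results of these data known.

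ATF4 and 13 of its other known targets were read in the same model. In this list of 14 genes, 11 had the higher 6 h change in JinB8, 2 had the lower change and 1 did not pass, with a median of 1.177, where 6.46% of all genes had the higher and 10.2% the lower change. Against 1 h, 13 of the 14 fell and 1 rose in WT at 6 h, and 7 rose, 5 fell and 2 did not pass in JinB8. Of all genes, 25.7% rose and 24.8% fell in WT, and 26.0% rose and 27.0% fell in JinB8. SLC7A11, the cystine transporter, went from 71.0 ± 9.49 CPM (SD, n = 4) to 22.1 ± 0.987 CPM (SD, n = 3) in WT and from 63.4 ± 2.13 to 209.0 ± 26.0 CPM in JinB8, a difference of 3.29. PSAT1, an enzyme of serine synthesis, went from 166 ± 8.38 to 71.5 ± 3.01 CPM in WT and from 175 ± 4.97 to 258 ± 3.78 CPM in JinB8, a difference of 1.77. ATF3, a transcription factor of the same response, differed by 2.37 and PHGDH, the first enzyme of serine synthesis, by 1.23.

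ATF4 RNA itself, singled out after its values were seen, went from 770.1 ± 105 to 404 ± 6.58 CPM in WT and from 677 ± 5.45 to 662 ± 17.5 CPM in JinB8. It fell in WT (log2 fold change -0.99) and did not pass in JinB8 (-0.03), and the difference of 0.95 passed (SE 0.161, edgeR adjusted p = 0.00146). The 2 genes with the lower change in JinB8 were DDIT3, which codes for the stress factor CHOP, with -0.91, and TRIB3, a pseudokinase, with -0.58. The DDIT3 call was lost when any 1 of 3 libraries was left out (edgeR adjusted p up to 0.0563). ATF4 protein was not measured, and its part in the synthetase values was not tested.

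The mitochondrial members with the lower change in JinB8 included EARS2 and SARS2. EARS2, which charges both glutamate and glutamine tRNAs in the mitochondrion, stood at 23.0, 21.8, 21.6 and 22.4 CPM at 1 h and at 68.7, 68.0 and 68.1 CPM at 6 h in WT. In JinB8 it stood at 28.6, 29.4, 30.8 and 32.004 CPM at 1 h and at 68.9, 69.7 and 67.0 CPM at 6 h. JinB8 was higher at 1 h and the lines overlapped at 6 h, so the rise was 1.64 in WT and 1.16 in JinB8 (difference -0.48, SE 0.0923, edgeR adjusted p = 0.00331).

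SARS2, the seryl enzyme, stood at 9.94, 9.13, 12.4 and 8.24 CPM at 1 h and at 24.1, 24.0 and 23.8 CPM at 6 h in WT. In JinB8 it stood at 15.7, 12.9, 13.1 and 13.3 CPM at 1 h and at 21.3, 17.9 and 21.0 CPM at 6 h. JinB8 was above WT at 1 h and below it at 6 h, without overlap at either time. The difference was -0.67 (SE 0.165, edgeR adjusted p = 0.0141), opposite in sign to that of its cytosolic partner SARS1. Leaving out single libraries lost the SARS2 call in 2 of 20 cases (adjusted p up to 0.0669).

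At 3 h the change differed between the lines for 2 of 37 members, against 4.28% of genes, for 6 members without the library that stood apart, against 1066 of 16401 genes, and for 1 without the JinB8 CD3+CD28 library at 1 h, against 190 of 16432 genes.

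Other mitochondrial members rose in both lines. LARS2, the leucyl enzyme, stood at 39.3, 37.5, 33.7 and 39.5 CPM at 1 h and at 72.9, 70.1 and 66.4 CPM at 6 h in WT, a change of 0.92, and rose by 0.57 in JinB8. CARS2 rose by 0.89 in WT and by 1.02 in JinB8, where it went from between 19.3 and 24.5 CPM to between 41.5 and 43.5 CPM. MARS2 rose by 0.75 in WT and by 0.87 in JinB8, where it went from between 30.2 and 33.5 CPM to between 57.7 and 59.0 CPM. WARS2, VARS2, NARS2, AARS2, PARS2 and FARS2 (phenylalanyl) also rose in both lines. HARS2, IARS2, RARS2, TARS2 and YARS2 passed in neither line.

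Between partners for 1 amino acid, the cytosolic member had the lower 6 h log2 fold change in 12 of 17 pairs in WT and in 9 of 17 in JinB8. The cysteinyl pair lay farthest apart in WT, with CARS1 lower than CARS2 by 1.95 on the log2 scale, against 0.87 in JinB8. The tryptophanyl pair lay the other way in both lines, with WARS1 above WARS2 by 0.55 in WT and by 0.82 in JinB8. These values describe the pairs and were not tested.

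Over all libraries, 12 of 37 members were higher in JinB8 than in WT and none was lower, against 40.4% of genes tested in either direction, and 15 passed without the library that stood apart, against 41.8%. The higher direction was called in 19.8% of genes. The 12 were 9 cytosolic members (median over the class 0.28) and 3 mitochondrial members (median 0.15), and the median over all genes was -0.0066. The mitochondrial median was 0.071 without the JinB8 CD3+CD28 library at 6 h. IARS1 had a lowest, median and highest level of 297, 323 and 405 CPM in WT and of 437, 552 and 612 CPM in JinB8. The lines did not overlap, JinB8 was higher in all 10 pairs matched for treatment and time, and the log2 difference was 0.70 (SE 0.0769, edgeR adjusted p = 1.45e-07).

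SARS1 ran from 116 through a median of 147 to 186 CPM in WT and from 162 through 222 to 244 CPM in JinB8. The ranges overlapped, but JinB8 was higher in 10 of 10 matched pairs, and the log2 difference was 0.59 (SE 0.0933, edgeR adjusted p = 2.26e-05). AARS1 ran from 120.4 through 172 to 279 CPM in WT and from 210.4 through 244 to 374 CPM in JinB8, and CARS1 from 57.8 through 109 to 124 CPM in WT and from 120.0 through 133 to 146 CPM in JinB8. Both were higher in 10 of 10 pairs, by 0.56 (SE 0.177, edgeR adjusted p = 0.0152) and by 0.46 (SE 0.137, adjusted p = 0.0103).

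The other cytosolic members that passed were KARS1 (0.40), LARS1 (0.37), YARS1 (0.37), RARS1 (0.36) and EPRS1 (0.28). The RARS1 call was lost when any 1 of 8 libraries was left out. VARS1 was higher in 10 of 10 pairs, but its difference of 0.59 missed the threshold (edgeR adjusted p = 0.0560). This comparison has no term for time, so its spread holds the changes with time, which were large for VARS1. With a time term shared by both lines, 24 members and 58.8% of all genes passed.

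The 3 mitochondrial members that passed were PARS2 with 0.53 (SE 0.139, edgeR adjusted p = 0.00399), YARS2, the tyrosyl enzyme, with 0.29 (SE 0.0646, adjusted p = 0.000822) and TARS2, the threonyl enzyme, with 0.27 (SE 0.0937, adjusted p = 0.0240). PARS2, the member with the fewest counts, ran from 5.26 through a median of 7.72 to 9.82 CPM in WT and from 7.91 through 10.5 to 14.1 CPM in JinB8. YARS2 ran from 27.2 through 30.2 to 34.3 CPM in WT and from 30.3 through 37.7 to 41.5 CPM in JinB8. All 3 overlapped between the lines and were higher in JinB8 in 10 of 10 matched pairs, while CARS2 was higher in JinB8 in 0 of 10.

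**Figure D5:**
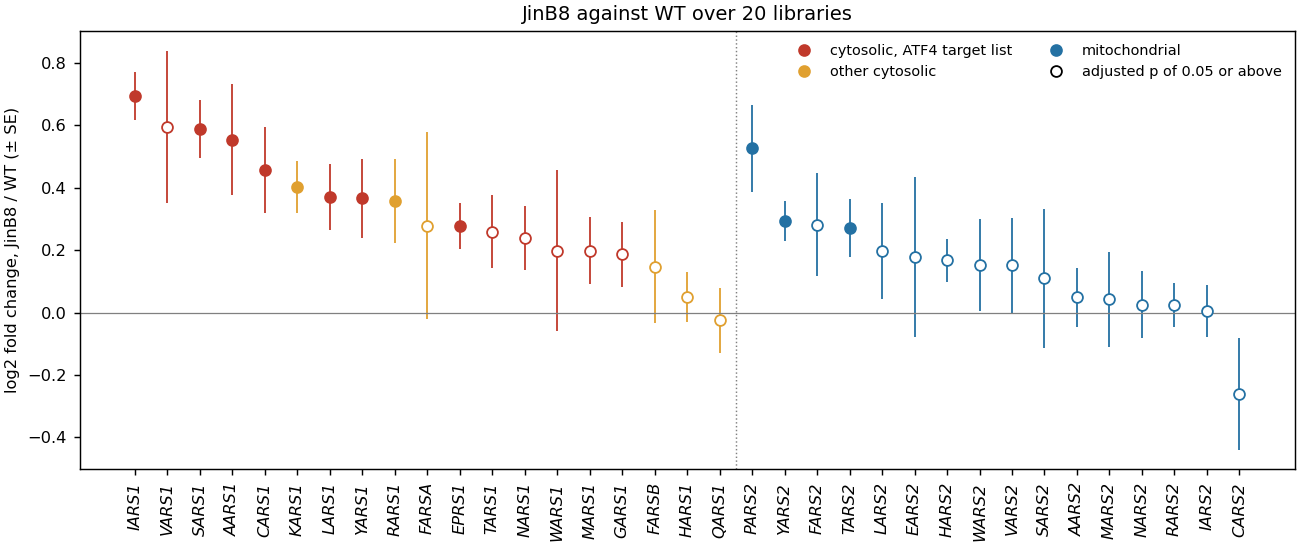
Log2 fold change of JinB8 against WT over 10 libraries per line for 35 members, with bars of 1 SE and filled points for an adjusted p under 0.05. The 9 cytosolic and 3 mitochondrial filled points all lie above 0, with IARS1 the highest of them at 0.70.

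By time point, 22 of 37 members differed between the lines at 1 h against 43.0% of genes, 15 at 3 h against 46.5%, and 22 at 6 h against 47.2%. Without the library that stood apart these counts were 23, 19 and 23, against 50.7, 46.3 and 54.7% of genes. At 1 h the classes were alike in count, with 10 cytosolic and 10 mitochondrial members higher in JinB8 and GARS1 and CARS2 lower. At 3 h, 10 cytosolic and 3 mitochondrial members were higher, and QARS1 was the cytosolic member that was lower (edgeR adjusted p = 0.0456). QARS1 had a lowest, median and highest level of 113, 142 and 146 CPM in JinB8 and of 146, 153 and 171 CPM in WT. Its difference without the library that stood apart is not given here.

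At 6 h, 16 cytosolic members were higher in JinB8 and none lower (median 0.54), while 5 mitochondrial members were higher and 1 was lower (median 0.01). Of all genes, 22.8% were higher and 24.5% lower. All 13 members of the ATF4 target list were among the 16, with a list median of 0.76 and the largest values in CARS1 (1.26), YARS1 (1.00) and TARS1 (0.94). Of the 7 other cytosolic members, RARS1 (0.51), KARS1 (0.44) and FARSA (0.25) were higher. The mitochondrial members higher at 6 h were PARS2 (0.74), FARS2 (0.40), TARS2 (0.31), VARS2 (0.31) and YARS2 (0.24), and CARS2 was lower (-0.25). The calls for CARS2, YARS2 and FARSA at 6 h were lost when any 1 of 10, any 1 of 8 and any 1 of 4 libraries was left out, and the call for WARS1 was lost without a low-count filter. The comparisons at 3 times and the interaction share libraries and are not independent of each other.

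The multisynthetase complex holds 8 of the cytosolic members, among them EPRS1, IARS1, LARS1 and MARS1, on 3 scaffold proteins. Over all libraries 5 of the 8 were higher in JinB8 (EPRS1, IARS1, KARS1, LARS1 and RARS1), a direction called in 19.8% of genes. With time, 2 rose and 4 fell in WT at 6 h, 3 rose and 2 fell in JinB8, and MARS1 alone had a different change between the lines by the test. Of all genes, 25.7% rose and 24.8% fell in WT at 6 h, 26.0% rose and 27.0% fell in JinB8, and 16.6% had a different change. Of the scaffold genes, AIMP2 went from 12.3 ± 0.942 to 36.8 ± 0.748 CPM in WT and from 20.9 ± 0.839 to 49.4 ± 4.10 CPM in JinB8, rises of 1.53 and 1.25. AIMP1 rose by 0.37 and 0.27. EEF1E1 rose by 0.52 in WT and had a change of -0.02 in JinB8, a difference of -0.54 (SE 0.156, edgeR adjusted p = 0.0306) that was lost when any 1 of 11 libraries was left out.

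Mitochondria have no glutaminyl-tRNA synthetase, and the glutamate placed on glutamine tRNA by EARS2 is converted by the amidotransferase of GATB, GATC and QRSL1. GATB rose from 10.3 ± 0.756 to 23.6 ± 1.31 CPM in WT and from 12.7 ± 0.826 to 28.9 ± 0.391 CPM in JinB8, changes of 1.17 and 1.16. QRSL1 rose by 0.48 and 0.52. GATC rose by 0.56 in WT, with 0.15 in JinB8 that did not pass, a difference of -0.41 (SE 0.0937, edgeR adjusted p = 0.0100) that was lost without the JinB8 TSP1 library at 6 h (edgeR adjusted p = 0.0608).

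A list of 6 genes held those for editing of mischarged tRNA and selenocysteine synthesis, and TARS3, whose symbol falls outside the rule for members. Of these, 4 rose in WT at 6 h and 3 in JinB8, directions called in 25.7% and 26.0% of genes. Among them were DTD2 (0.86 and 0.86), a deacylase of mischarged tRNA, and AARSD1 (0.70 and 0.84), an editing protein for alanine tRNA. TARS3 rose by 0.39 and 0.22. The differences between the lines in this change lay between -0.20 and 0.30 and did not pass. Of 5 cytosolic elongation factor genes, 4 fell in WT, against 24.8% of genes, including EEF2, which moves the ribosome along the mRNA, by 0.64. In JinB8 1 rose and 1 fell, against 26.0% and 27.0% of genes, and EEF2 and EEF1D had the higher change in JinB8, by 0.71 and 0.47, a direction called in 6.46% of genes. Of 4 mitochondrial elongation factor genes, 3 rose and 1 fell in both lines, with TSFM at 0.84 and 0.82, against the same shares of rises and falls over all genes.

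Counts per isoform were tested between the lines in the same way. Of 289 member isoforms that passed the filter, 37 differed, 35 higher and 2 lower in JinB8, against 15.1% of isoforms tested in either direction. The share of all isoforms called in each direction is not given here, so the split by direction has no such share beside it. Without the library that stood apart, 37 of 295 differed, 36 higher and 1 lower, against 15.6%. For IARS1, the isoform IARS1-211, which the annotation classes as subject to nonsense-mediated decay, went from 8.61 ± 2.80 CPM (SD, n = 10) in WT to 42.0 ± 14.8 CPM (SD, n = 10) in JinB8, a log2 difference of 2.32 (SE 0.213, edgeR adjusted p = 8.51e-08). Its share of IARS1 counts lay between 1.37 and 4.55% in the WT libraries and between 4.87 and 14.3% in those of JinB8, with means of 2.58 and 7.72% and no overlap. The main coding isoform IARS1-203 made up 60.4 and 58.9% and rose with the gene by 0.69.

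CARS2-210, which retains an intron, was lower in JinB8 (log2 difference -0.95, SE 0.313, edgeR adjusted p = 0.0449), a call lost without the library that stood apart (edgeR adjusted p = 0.0634). KARS1-201, the main isoform of KARS1, was higher in JinB8 by 0.49 with a share of 71.0% in WT and 74.0% in JinB8. VARS2-211 was higher by 1.02 (SE 0.322, edgeR adjusted p = 0.0350), with a share of 12.5% in WT and 23.3% in JinB8. Isoform counts are estimates that divide reads between overlapping transcripts, so these shares are less certain than the gene values.

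The treatments were compared within each line over 1, 3 and 6 h, and no member passed the edgeR test in any of the 4 contrasts. Each contrast is 1 average over the times, so an effect at a single time, such as 6 h, was not tested. Every contrast holds CD3+CD28+TSP1, and none uses the untreated libraries. Adding TSP1 to CD3+CD28 called 0 of 37 members in WT (0% of genes tested) and 0 of 37 in JinB8 (0% of genes). Adding CD3+CD28 to TSP1 called 0 of 37 in WT (0.0919% of genes) and 0 of 37 in JinB8 (0% of genes). At an unadjusted p under 0.05, the counts of members were 1 and 5 for the addition of TSP1 and 0 and 6 for the addition of CD3+CD28, in WT and JinB8 respectively, against 366 and 1771 and 816 and 2636 of all 16327 genes. Without the library that stood apart edgeR called 0 members in each contrast, and these counts were 1 and 0 for TSP1 and 1 and 3 for CD3+CD28, against 725 and 480 and 1376 and 1517 of 16401 genes. DESeq2 and limma voom also called 0 members in each contrast, and at an unadjusted p under 0.05 they reached at most 5 and 4 members, and at most 2258 and 2310 of all genes. The log2 fold changes of members lay between -0.23 and 0.25 in WT and between -0.28 and 0.27 in JinB8 over these contrasts, with SE up to 0.121 and 0.117. How small a difference these contrasts could detect was not tested.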

How the data were processed

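RNA of 20 libraries was used as the RSEM expected counts per gene and per isoform that the authors deposited, which are not divided by library size or length. Per the submitters' processing notes, the authors used Cutadapt 1.18, STAR 2.4.2a and RSEM 1.3.3 on hg38. The strand setting, and the batch that the authors removed with ComBat for their own analysis, are not given in the sources used here, and that step was not repeated. Each table holds 2 columns of no sample, which were not used.

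Expected counts were rounded for edgeR 4.0.16 (R 4.3.3), genes with low counts were dropped with filterByExpr (10 counts, 15 in total, grouped by line), and TMM factors were applied. The lines were compared over 10 libraries each by a quasi-likelihood test without further terms. All other contrasts came from 1 model of all libraries that fitted every combination of line and treatment and, within a line, terms for 3 h and 6 h, so the change with time rests on the 3 treated conditions and the spread is shared. P-values were adjusted over all 16327 genes by the Benjamini-Hochberg method with a threshold of 0.05. Alternatives were DESeq2 1.42.0, limma 3.58.1 (voom, quantile normalization), upper-quartile factors, no filter or 1 CPM in every library, a block of matched pairs, other terms, and each library left out.

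TPM values and positions used lengths and coordinates of GENCODE 44, whose transcripts matched 99.5% of the members' isoform counts. In simulated data with 200 changed genes, the comparison of 6 h changes between lines recovered 84.8% of genes changed 4-fold and 25.4% of those changed 1.5-fold, among 16327 genes. In the real data 2714 genes passed this comparison, many more than were changed in the simulation. The adjustment for many tests therefore differs, and these rates are not those of the real test.

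The members and gene lists were chosen with earlier results of these data known. Members named with full values are the 4 cytosolic and up to 4 mitochondrial members called with the largest change between the lines, the 3 of each class called with the largest 6 h change in each line, and those called for the difference between the lines in that change. Of other lists, up to 4 called genes were named by p. Results of some members that this rule selects are counted but not reported here. Depth limits the values least for IARS1 and most for PARS2.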

Additional observations from a re-analysis of the deposited data

Results flagged for a closer look

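At 1 h each line had 1 library for each condition, so the libraries compared here were different conditions and not replicates. An effect of the condition and an outlying library cannot be told apart, and the count has no rate expected by chance beside it. A library far from the others of its line at 1 h was found for 8 members among 74 checks. These were the untreated WT library for CARS1 (113 CPM, low), WARS1 (26.0 CPM, low), NARS2 (27.3 CPM, low) and WARS2 (12.9 CPM, high), the WT CD3+CD28 library for TARS1 (457 CPM, high), the untreated JinB8 library for SARS2 (15.7 CPM, high), the JinB8 CD3+CD28 library for IARS2 (109 CPM, high) and the JinB8 TSP1 library for FARSB (45.0 CPM, high).

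The change from 1 h to 6 h differed between JinB8 and WT by the test of the difference (JinB8 minus WT, log2) for CARS1 (1.21), TARS1 (1.08), GARS1 (0.978), YARS1 (0.971), MARS1 (0.961), NARS1 (0.635), SARS1 (0.416) and AARS1 (0.311) among cytosolic members. Among mitochondrial members it differed for SARS2 (-0.67) and EARS2 (-0.48). At 3 h the change differed for GARS1 (0.429).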

How the results depend on the processing

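Of the values recomputed under the alternatives, which leave out those that did not pass the test, none reversed its direction. With limma voom and quantile normalization, class medians moved to -0.14 (cytosolic, 6 h in WT), 0.37 (cytosolic, JinB8 against WT), 0.52 (mitochondrial, 6 h in JinB8) and 0.48 (mitochondrial, 6 h in WT). Member isoforms called numbered 37 in the main test and 22 without a low-count filter, where more isoforms are tested. They numbered 30 with a filter of 1 CPM and 44 with the block of matched pairs. The shares over all isoforms in these 3 alternatives are not given here, so the counts cannot be read as particular to the members. Members with a different 3 h change numbered 5 with a filter of 1 CPM (6.29% of all genes), 5 with DESeq2 (6.55%), 5 with limma voom (4.35%), 4 with means for line and time only (4.45%) and 4 with upper-quartile factors (4.48%). Members that differed between the lines over all libraries, in either direction, numbered 24 with a time term (58.8% of all genes). With a replicate block, each of 10 blocks holding the WT and JinB8 libraries of the same treatment and time, they numbered 21 (54.9%). The deviations of such pairs correlated between -0.332 and 0.184, over 0.1 in 2 of 10 pairs. No pairing beyond the shared condition is stated in the sources used here.

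With each library left out in turn, the mitochondrial medians ran from 0.49 to 0.59 (6 h in JinB8), from 0.51 to 0.61 (6 h in WT) and from 0.071 to 0.20 (JinB8 against WT). Members called ran from 12 to 23 (3 h in WT) and from 1 to 6 (3 h change between the lines). Of the 11 members with a different 6 h change, all 11 were called under DESeq2, limma voom, upper-quartile factors and the 1 CPM filter. Without a filter 9 were called (AARS1 among those lost, adjusted p = 0.116), with the replicate block 10 (SARS1 lost, 0.0615), and with single libraries left out between 8 and 11. The TARS2 call between the lines was lost without a filter (0.0509), as were those of VARS2-211 (0.0598) and CARS2-210 (0.0830). Between the lines at 6 h, the FARSA call was lost with the replicate block (0.104), with treatment effects shared by both lines (0.0767) and with line and time means only (0.0583), and at adjusted p up to 0.0926 without single libraries. The CARS2 call was lost under 7 alternatives, at adjusted p from 0.0556 to 0.112, and the YARS2 call with the block (0.0518) and without a filter (0.0944). The WARS1 call was lost without a filter (0.0972), which leaves 12 of 13 members of the ATF4 target list, and without any 1 of 3 libraries (up to 0.0647). The FARS2 and VARS2 calls were each lost without 1 library (0.0633 and 0.0506), as were those of IARS1 at 6 h in WT (0.0561) and AARS2 at 6 h in JinB8 (0.121). The isoform results without the JinB8 CD3+CD28+TSP1 library at 3 h were added after the data were seen. The cause of these shifts was not tested.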
